A study of Mus musculus with 10 samples.

Results

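Ear2 and the eosinophil-associated genes measured with it were followed in macrophages sorted from the lamina propria of the mouse small intestine 24 h after experimental stroke. The members were the genes named Ear and a number, together with Siglecf, Epx, Prg2 and Il5ra, as far as the table analysed here lists them. This rule gave 4 of the 17279 listed genes, namely Ear2, Siglecf, Prg2 and Il5ra. Ear2 was chosen by its measured rise after stroke in these libraries, so its difference between the groups is given below as a description and not as a test. Siglecf, Prg2 and Il5ra entered by name. Epx and the 4 other protein-coding genes of that name pattern in the GENCODE M21 annotation (Ear1, Ear6, Ear10 and Ear14) were not analysed here.

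The study compared mice that had undergone sham surgery with mice that had undergone pMCAO, a permanent occlusion of the middle cerebral artery used to model ischaemic stroke. The genotype label of every sample is C57BL6/J, and the cells are described as CX3CR1-GFP+, that is, sorted by flow cytometry for green fluorescence from the fractalkine receptor locus, from the peeled mucosa of the whole small intestine. There were 5 sham and 5 pMCAO libraries, numbered as biological replicates 1 to 5 in each group, and the names of replicate 1 in both groups mark them as pools. Total counts were 18894151 to 60665972 in the sham group and 6430643 to 28672285 in the pMCAO group, so that weakly expressed genes were measured less precisely after pMCAO. Sham replicate 5 and pMCAO replicate 4 stood apart by high counts of the X-inactivation transcript Xist, and values without them are given where they differ. All 10 macrophage identity genes examined (Adgre1, Csf1r, Cx3cr1, Mertk, Fcgr1, Cd68, C1qa, C1qb, C1qc and Itgam) were present in every library. Levels are CPM, the counts of a gene scaled to a common library size, with the sizes corrected by the trimmed mean of M-values (TMM). In bulk RNA, fewer cells of a type and less RNA per cell cannot be told apart.

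Eosinophils are granulocytes of the type 2 immune response and are resident in the healthy small intestine. Their granules hold cationic proteins, among them eosinophil peroxidase (Epx), major basic protein (Prg2) and eosinophil-associated ribonucleases (the Ear genes), and their survival depends on interleukin-5 acting through the receptor chain Il5ra. Siglecf encodes a sialic acid-binding inhibitory lectin on the eosinophil surface. These genes need not belong to eosinophils alone. Ear2 is also a known transcript of nonclassical monocytes and some tissue macrophages. Siglec-F is also found on lung alveolar macrophages, and Il5ra also on B-1 cells.

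Ear2 (ENSMUSG00000072596) lies on the plus strand of chromosome 14 at chr14:44102654-44103534 of GRCm38, beside other Ear genes and pseudogenes, and has 2 exons, the second of which holds its whole coding sequence. The gene nearest to it in sequence was Ear10, which shared 97.0% of its coding bases and differed at 14 of 468. Ear1 shared 95.1%, Ear6 87.6%, Rnase2a 79.7%, Rnase2b 78.2% and Ear14 77.8%. Of the 620 windows of 100 bases (the read length) in the Ear2 transcript, 86 (13.9%) occurred unchanged in Ear10 or in the pseudogene Ear-ps2, and the other windows were in no other annotated gene. For Siglecf, Prg2 and Il5ra, 0 windows of this length were found in another gene. How reads that match more than 1 gene were counted is not given in the sources used here, so the Ear2 counts are uncertain to the extent of this shared stretch. The stretch of coding sequence that separates Ear2 best from Ear10 is shown first, with the differing bases in capitals (bases 252 to 371 of the coding sequence, chr14:44103138-44103257 in Ear2, 8 differences in 120 bases), followed by the 185 bases over which they cannot be told apart (bases 89 to 273, chr14:44102975-44103159).
Ear2, most different stretch: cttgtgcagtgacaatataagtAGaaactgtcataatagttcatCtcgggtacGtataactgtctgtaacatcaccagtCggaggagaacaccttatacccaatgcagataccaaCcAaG
Ear10, same stretch: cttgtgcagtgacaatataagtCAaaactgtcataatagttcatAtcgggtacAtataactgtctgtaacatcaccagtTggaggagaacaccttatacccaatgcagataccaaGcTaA
Ear2, identical in Ear10: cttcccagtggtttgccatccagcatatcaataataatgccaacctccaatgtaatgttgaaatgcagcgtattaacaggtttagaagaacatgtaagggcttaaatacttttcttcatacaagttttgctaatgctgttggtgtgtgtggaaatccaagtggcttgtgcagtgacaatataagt

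The ribonuclease gene Ear2 had the highest level of the 4 members. In the sham libraries, replicates 1 to 5 held 30.0, 29.9, 19.6, 18.5 and 26.4 CPM of Ear2. In the pMCAO libraries the values were 33.4, 47.3, 41.4, 40.9 and 61.8 CPM. The groups did not overlap, with a narrow gap between the highest sham library (replicate 1) and the lowest pMCAO library (replicate 1), which both carry pool names. Ear2 was thus at 24.9 ± 5.54 CPM in sham and 45.0 ± 10.6 CPM after pMCAO (SD, n = 5 each), a ratio of 1.81. The fitted log2 fold change of pMCAO against sham was 0.85 with a standard error of 0.21. These are the values by which Ear2 was picked, and nothing more is read from them. For comparison, the groups did not overlap in 167 of the 16949 genes tested (0.985%), with pMCAO higher in 76 (0.448%) and lower in 91 (0.537%). On counts scaled to library totals alone, the sham libraries were at 15.6 to 33.7 CPM and the pMCAO libraries at 35.5 to 70.0 CPM. The groups were separate on that scale too, but these are the same counts and add no support. The deposited counts behind these values were 228 to 2042 per library.

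**Figure D1:**
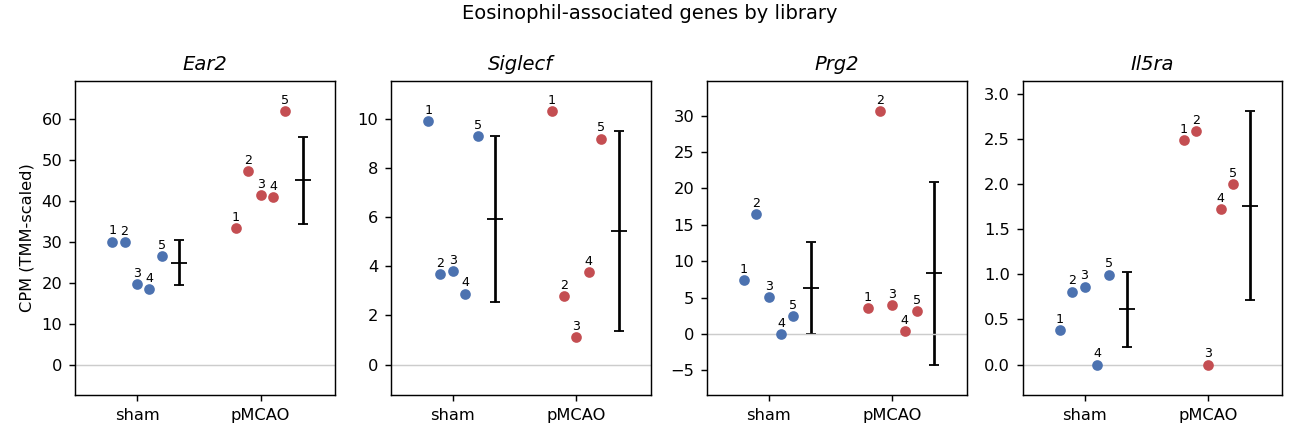
TMM-scaled CPM (linear vertical axes, grey line at 0) of the 4 genes in each library, sham in blue and pMCAO in red, with replicate numbers beside the points and black bars giving mean ± SD (n = 5). The groups are separate for Ear2 (sham at most 30.0, pMCAO at least 33.4 CPM) and overlap for Siglecf, Prg2 and Il5ra.

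Per length, Ear2 had a higher mean than the other members and lay within the range of macrophage genes. Its mean over the 10 libraries was 48.6 CPM per kb of exon (25.7 to 85.9), higher than 94.7% of the 17193 listed genes with a known length. By group its mean was 34.6 CPM per kb in sham (above 92.2% of these genes) and 62.5 after pMCAO (above 95.9%), a difference for which it was picked. Fcgr1, the high-affinity IgG receptor, was at 46.6 (25.3 to 65.9), the uptake receptor Mertk at 46.2 (17.7 to 79.5) and Cx3cr1 at 37.7 (21.9 to 49.7) CPM per kb. These neighbours overlap with Ear2 in their ranges, so their order is not resolved. In sham the means of Cx3cr1 (35.7), Mertk (37.7) and Fcgr1 (49.8) were above that of Ear2, and after pMCAO those of Fcgr1 (43.5), Cx3cr1 (39.7) and Mertk (54.7) were below it. Major basic protein (Prg2) was at 8.71 CPM per kb with a range of 0 to 36.5 that overlapped with Ear2 and these neighbours, Siglecf at 2.03 and Il5ra at 0.332, and Il5ra was above only 7.58% of the listed genes. The remaining macrophage genes were higher, from Itgam at 136 to C1qb, a chain of complement C1q, at 1890 CPM per kb.

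**Figure D2:**
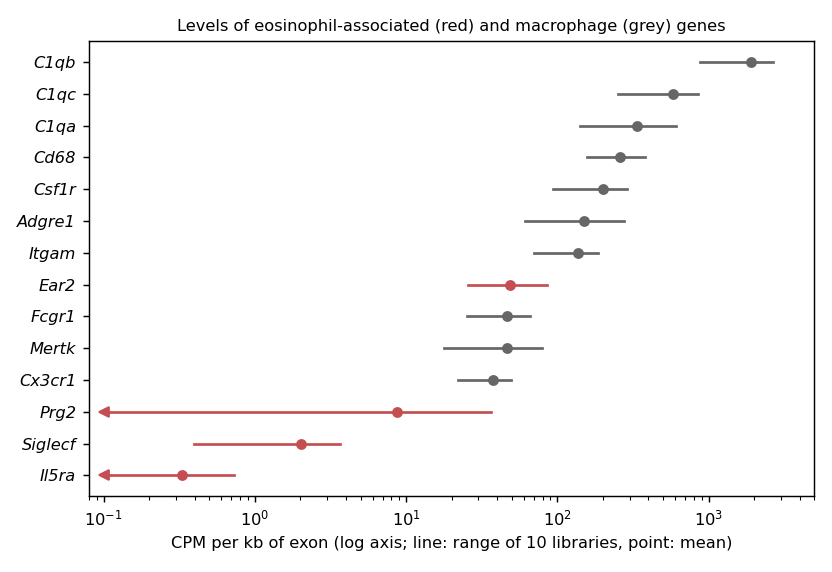
Level per kb of merged exon (horizontal log axis) of the eosinophil-associated genes in red and macrophage identity genes in grey, with points for the mean and lines for the range over 10 libraries, and arrowheads where a library was at 0. Ear2 at 48.6 CPM per kb lies beside Fcgr1, Mertk and Cx3cr1, while the means of Prg2, Siglecf and Il5ra lie below those of all macrophage genes drawn and the range of Prg2 (to 36.5) overlaps with them.

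Among the members that entered by name, none passed an FDR of 0.05, and the uncertainty of each was wide. Over the whole table the quasi-likelihood fit of edgeR called 0 of 16949 genes (0%). At an unadjusted p under 0.05 there were 799 genes (4.71%), 383 higher (2.26%) and 416 lower (2.45%) after pMCAO, and 0 of these 3 members was among them. DESeq2 called 3 genes at an FDR of 0.05 and had 1011 at an unadjusted p under 0.05, and none of the 3 was a gene of the lists described below.

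Siglecf (ENSMUSG00000039013, chr7:43351341-43359531, plus strand) encodes the surface lectin by which mouse eosinophils are usually gated. Sham replicates 1 to 5 held 9.91, 3.69, 3.80, 2.89 and 9.30 CPM. pMCAO replicates 1 to 5 held 10.3, 2.78, 1.11, 3.77 and 9.19 CPM. In both groups replicates 1 and 5 were high and the other libraries were low, and the groups overlapped throughout. The means were 5.92 ± 3.39 CPM in sham and 5.42 ± 4.06 CPM after pMCAO (SD, n = 5 each). The log2 fold change was −0.13 with a standard error of 0.59 and a 95% interval from −1.42 to 1.15 (edgeR, FDR = 0.986), which leaves room for a doubling as well as a halving. Without sham replicate 1 it was 0.13, and without the libraries high in Xist 0.19, so no direction can be given.

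Prg2 (ENSMUSG00000027073, chr2:84980461-84983632, plus strand), the granule major basic protein, was dominated by replicate 2 of each group. In sham it was at 7.37, 16.5, 5.04, 0 and 2.50 CPM in replicates 1 to 5. After pMCAO it was at 3.52, 30.6, 3.94, 0.410 and 3.14 CPM. Replicate 2 was the highest library and replicate 4 the lowest in both groups. Sham replicate 4 had no count, which at its depth allows up to 0.189 CPM (3 counts), and pMCAO replicate 4 had 5 counts. The log2 fold change was 0.42 (standard error 1.11, 95% interval −1.99 to 2.83, edgeR FDR = 0.975). Without pMCAO replicate 2 it turned to −1.20, with an FDR of 0.798 in edgeR's test, so the direction rests on that library.

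Il5ra (ENSMUSG00000005364, chr6:106710357-106749037, minus strand), the ligand-binding chain of the interleukin-5 receptor, was close to the limit of detection. Its counts were 11, 25, 30, 0 and 77 in sham replicates 1 to 5, or 0.384, 0.808, 0.864, 0 and 0.996 CPM. After pMCAO the counts were 17, 69, 0, 21 and 61, or 2.49, 2.59, 0, 1.72 and 2.00 CPM. The groups overlapped, since pMCAO replicate 3, with no count, lay below all sham libraries except replicate 4. A count of 0 allows up to 0.303 CPM in pMCAO replicate 3 and 0.189 CPM in sham replicate 4. The log2 fold change was 1.5 (standard error 1.03, 95% interval −0.73 to 3.74) and did not pass the threshold (edgeR FDR = 0.922).

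The other eosinophil genes gave a mixed picture. Of the list of 6 defining genes (Siglecf, Epx, Prg2, Prg3, Il5ra and Ccr3), 5 were tested, 0 passed an FDR of 0.05 in either direction, and 3 had positive and 2 negative fold changes, with a median log2 fold change of 0.42 against −0.006 over all genes. Ccr3, the eotaxin receptor, was at 0.797 ± 0.515 CPM in sham and 3.47 ± 3.26 CPM after pMCAO (SD, n = 5 each), with ranges of 0.189 to 1.5 and 1.01 to 8.94 CPM that overlapped. Its log2 fold change of 2.09 (standard error 0.75) had an unadjusted p under 0.05 but an FDR of 0.922 in edgeR's test. Prg3, a homologue of major basic protein, was at 0 to 2.96 CPM in sham and 0.196 to 0.656 CPM after pMCAO, with a log2 fold change of −0.68 (edgeR FDR = 0.955). Summed over the 5 listed defining genes, the libraries held 6.04 to 21.6 CPM in sham and 6.67 to 38.7 CPM after pMCAO. Of 7 further genes used for eosinophils but shared with other myeloid cells, 5 were tested and 0 passed. The lowest unadjusted p among them was that of Clec4a4, a lectin receptor, at 2.04 ± 1.02 CPM in sham and 4.25 ± 1.48 CPM after pMCAO (SD, n = 5 each), where the log2 fold change was 1.05 (edgeR FDR = 0.922).

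The signals that recruit and sustain eosinophils could be followed only in part. Of 10 such ligands, 5 (Il5, Il3, Csf2, Il25 and Il13) were not analysed here, and of the 5 tested 0 passed, with 1 positive and 4 negative fold changes and a median log2 fold change of −1.06. Il4, the type 2 cytokine, was at 19.2 ± 12.7 CPM in sham and 9.18 ± 4.42 CPM after pMCAO (SD, n = 5 each), with a log2 fold change of −1.06. The eotaxin genes Ccl11 and Ccl24 had log2 fold changes of −1.34 and 0.26. The alarmin genes Il33 and Tslp were at −1.13 and −0.27 on the same scale. The lowest FDR of these ligands in edgeR's test was 0.922.

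The receptors of these signals ranged from Il5ra to Csf2rb in level. Of 11 receptors tested 0 passed, with 3 positive and 8 negative fold changes and a median log2 fold change of −0.20. The beta chain Csf2rb, shared by the receptors of interleukin-5, interleukin-3 and GM-CSF, was at 250 to 339 CPM in sham and 215 to 284 CPM after pMCAO. Csf2rb2, its close relative, was at 81.7 to 194 and 80.4 to 130 CPM. Their log2 fold changes were −0.26 and −0.47. An unadjusted p under 0.05 was found for Ccr3, given above, for the interleukin-3 receptor chain Il3ra and for Il13ra1, a receptor chain of interleukin-13. Over all genes tested the share at this threshold was 4.71% (edgeR). Il3ra was at 6.37 ± 3.13 CPM in sham and 2.96 ± 1.36 CPM after pMCAO, with a log2 fold change of −1.09 (edgeR FDR = 0.922). Il13ra1 went the other way, from 95.6 ± 28.2 to 135 ± 25.7 CPM, with a log2 fold change of 0.50 (edgeR FDR = 0.922). The remaining receptors had log2 fold changes of −0.05 (Csf2ra), −0.20 (Il1rl1), −0.28 (Crlf2), −0.58 (Il17rb) and −0.06 (Il4ra).

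**Figure D3:**
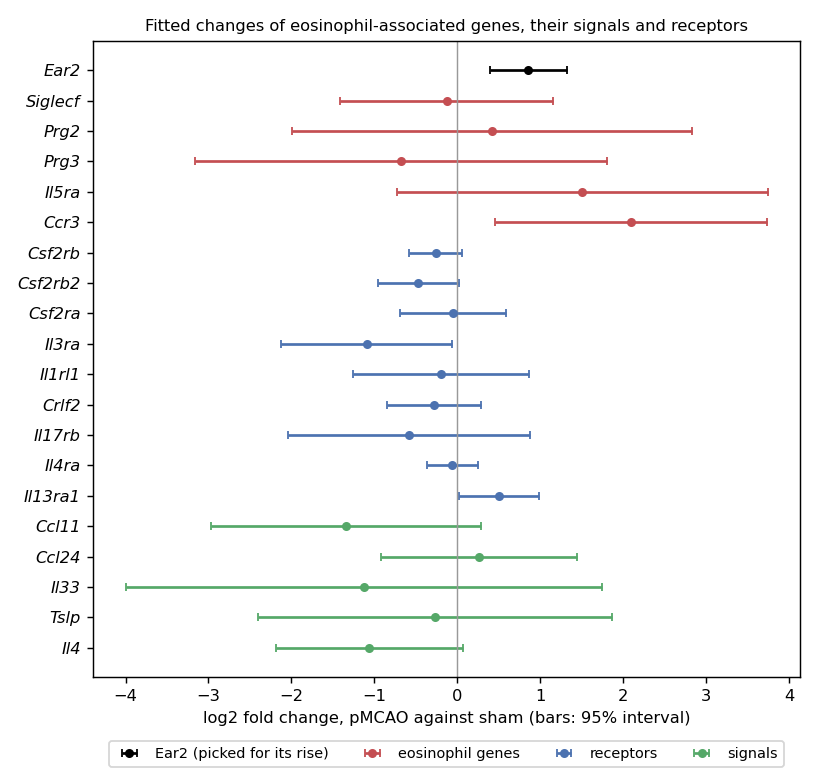
Log2 fold change of pMCAO against sham (horizontal axis, edgeR) with 95% intervals, for Ear2 in black, the eosinophil genes in red, the receptors in blue and the signals in green. Ear2, at 0.85, was picked for its rise, so its interval is no test. Of the others, only the intervals of Ccr3, Il3ra and Il13ra1 do not cross 0, while no FDR among these others was below 0.922. Over all genes tested, 4.71% had an unadjusted p under 0.05.

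No relative of Ear2 or of Siglecf by family passed the threshold. Of 17 other genes of the ribonuclease A family and its inhibitor, 7 were tested and 0 passed, with 5 positive and 2 negative fold changes and a median of 0.61. Rnase4 was at 97.1 ± 53.4 CPM in sham and 160 ± 77.7 CPM after pMCAO (SD, n = 5 each), with a log2 fold change of 0.72. Rnase2b, the tested gene among the relatives compared with Ear2 by sequence, was at 1.88 ± 2.29 and 4.35 ± 4.81 CPM, with a log2 fold change of 1.22 and a standard error of 1.09. Rnh1, which encodes the inhibitor that binds ribonucleases of this family, had a log2 fold change of −0.33 (95% interval −0.79 to 0.12). The lowest FDR in the family was 0.922 (edgeR). Of 8 other Siglec genes 7 were tested and 0 passed, with 5 positive and 2 negative fold changes and a median of 0.14. Among them the inhibitory lectin Cd33 was at 209 ± 67.6 and 284 ± 88.8 CPM (SD, n = 5 each), and Siglece, an inhibitory lectin of myeloid cells, at 47.3 ± 13.5 and 52.7 ± 12.3 CPM.

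Nonclassical monocytes circulate along the vessel wall and are a known source of Ear2, and their other genes had fold changes in both directions. Of the 10 genes of this list 0 passed an FDR of 0.05, with 4 positive and 6 negative fold changes and a median of −0.24. In the same edgeR test 3 of the 10 had an unadjusted p under 0.05, against 4.71% of all genes tested. Gngt2, a G protein gamma subunit, was at 118 ± 18.8 CPM in sham and 62.8 ± 19.3 CPM after pMCAO (SD, n = 5 each), with a log2 fold change of −0.92 (edgeR FDR = 0.922). The peptidase gene Ace had a log2 fold change of −0.89 (edgeR FDR = 0.922). Pou2f2, a transcription factor of this lineage, was at 0.45 (edgeR FDR = 0.922). Summed, the list was at 615 to 963 CPM in sham and 611 to 847 CPM after pMCAO. The 10 macrophage identity genes had a median log2 fold change of 0.16, with 0 past the threshold and a summed level of 3140 to 8520 CPM in sham and 4420 to 9100 CPM after pMCAO. The fractalkine receptor gene Cx3cr1, from whose locus the sorted fluorescence came, was at 161 ± 55.2 and 179 ± 43.0 CPM (SD, n = 5 each). Its log2 fold change was 0.15 (95% interval −0.40 to 0.71).

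Markers of mast cells, lymphoid cells and epithelium varied more between libraries than those of macrophages. The summed markers of mast cells and basophils differed 43.2-fold between the highest and lowest library, those of B and plasma cells 32.4-fold, epithelial markers 12.1-fold, T cell markers 11.1-fold and those of group 2 innate lymphoid cells 5.77-fold. The spread was 2.90-fold for macrophage, 2.63-fold for neutrophil and 1.58-fold for nonclassical monocyte markers. The neutrophil sum held 4 of its 11 genes and was mostly Csf3r (mean 87.5 CPM in sham and 89.3 after pMCAO), so its spread is mainly that of Csf3r. To compare within groups, the deviations of each member from its group mean were correlated with those of the summed markers of 8 cell types, which made 32 relations over 10 libraries with exact permutation within groups. After adjustment over the 32, 4 passed 0.05 by Pearson's r and 0 by Spearman's rho. None of these 4 passed without the libraries high in Xist, where r was 0.86 (Siglecf), 0.86 (Prg2), 0.902 (Il5ra with innate lymphoid markers) and 0.919 (Il5ra with T cell markers) over 8 libraries and the adjusted p 0.178, 0.167, 0.167 and 0.167 by exact permutation. None passed without both pooled libraries, where the adjusted p lay between 0.0556 and 0.0988 by exact permutation. There r was 0.924 (Siglecf), 0.909 (Prg2), 0.925 (Il5ra with innate lymphoid markers) and 0.842 (Il5ra with T cell markers). With 8 libraries so few orderings exist that a single relation could not pass by itself. Both settings therefore cannot show whether the relations rest on the omitted libraries. The permutation treats the libraries of a group as independent of those with the same number in the other group, although Siglecf and Prg2 were high in the same numbers in both groups.

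Siglecf went with the mast cell and basophil markers. These were at 2180 to 20700 CPM in sham and 481 to 6860 CPM after pMCAO, with sham replicate 5 highest and pMCAO replicate 3 lowest. The library lowest for Siglecf in each group (sham replicate 4 and pMCAO replicate 3) was also lowest for these markers, while the highest was replicate 1 for Siglecf and replicate 5 for the markers in both groups. In each of the 5 replicate numbers the marker sum was lower in the pMCAO library. The ranges of the groups overlapped, however, and the numbers were not taken as pairs. Pearson's r was 0.861 (n = 10, exact permutation p = 0.00326, adjusted p = 0.0348) and Spearman's rho 0.8 (exact permutation p = 0.0192, adjusted p = 0.204), and r was 0.734 without the 2 libraries farthest from the median of the markers. With any library left out r stayed between 0.773 and 0.893, but the adjusted p passed 0.05 only without pMCAO replicate 2. All 9 tested genes of this list had negative fold changes, with a median of −1.29, and 0 passed an FDR of 0.05. The mucosal mast cell proteases Mcpt1 and Mcpt2, whose sequences are closely related, made up most of the marker sum, so the relation is mainly one with them. They were at 4390 ± 3180 and 4260 ± 3130 CPM in sham and at 1210 ± 1120 CPM each after pMCAO (SD, n = 5 each), with log2 fold changes of −1.86 and −1.82. Mcpt4 was at −1.86, and all 3 had an unadjusted p under 0.05 and an FDR of 0.922 in edgeR's test. Over all genes tested, 4.71% had an unadjusted p under 0.05. The part of mast cell RNA in the levels of Siglecf was not tested.

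Prg2 went with the markers of B and plasma cells. In these, sham replicate 2 held 95500 CPM and pMCAO replicate 2 held 111000 CPM, while sham replicate 4 and pMCAO replicate 4 held 3420 and 4430 CPM. The libraries highest and lowest for Prg2 in each group were thus highest and lowest for these markers. Pearson's r was 0.885 (n = 10, exact permutation p = 0.00104, adjusted p = 0.0333), Spearman's rho 0.8 (exact permutation p = 0.0192, adjusted p = 0.204), and r without the 2 farthest libraries 0.787. With any library left out r lay between 0.852 and 0.962, and the adjusted p passed 0.05 only where the library left out was pMCAO replicate 1, 2, 3 or 5. Igha, the IgA heavy chain, and Jchain made up most of this sum, at up to 83500 and 26800 CPM. The median log2 fold change of this list was −0.03, with 0 of 6 genes past an FDR of 0.05. The part of plasma cell RNA in the levels of Prg2 was not tested.

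Il5ra went with the summed markers listed for group 2 innate lymphoid cells, mostly Il7r and Rora, and with those of T cells. The innate lymphoid markers were lowest in pMCAO replicate 3 (22.7 CPM) and sham replicate 4 (34.5 CPM), the libraries without an Il5ra count. Pearson's r was 0.882 (n = 10, exact permutation p = 0.00438, adjusted p = 0.0350), with Spearman's rho of 0.8 (adjusted p = 0.204, exact permutation) and r of 0.654 without the 2 farthest libraries. With mast cell and basophil markers r was 0.81 (adjusted p = 0.0716, exact permutation) and 0.78 without the 2 farthest libraries, and with B and plasma cell markers 0.676 (adjusted p = 0.222, exact permutation) and 0.719 by the same measures. For the T cell markers r was 0.841 (adjusted p = 0.0348, exact permutation), rho 0.750 (adjusted p = 0.215, exact permutation) and r 0.534 without the 2 farthest libraries. With any library left out these were 0.771 to 0.917 and 0.756 to 0.886, and the adjusted p passed 0.05 only where the library left out was pMCAO replicate 1, 2 or 5. Il7r (mean 38.8 CPM in sham and 38.2 after pMCAO) and Rora (21.9 and 24.4) made up most of the innate lymphoid sum. The means of its other genes were at most 7.69 CPM, so the relation is mainly one with Il7r and Rora. It is not shown to be one with innate lymphoid cells, and it was not separated from that with T cell markers. The part of RNA from either cell type in the levels of Il5ra was not tested. The summed innate lymphoid markers were at 34.5 to 131 CPM in sham and 22.7 to 123 CPM after pMCAO, with a median log2 fold change of −0.95 and 0 of 6 past the threshold. The T cell list had a median of −0.76 and 0 of 6 past it.

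Ear2 showed no such relation that passed the threshold. Its r with the 8 marker sums ran from −0.531 for macrophages to 0.513 for mast cells and basophils, with adjusted p of 0.356 for both (n = 10, exact permutation). With nonclassical monocyte markers r was −0.321 and with B and plasma cell markers 0.435. Within groups its r with Siglecf was 0.299, with Prg2 0.507 and with Il5ra 0.294, given without a test.

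**Figure D4:**
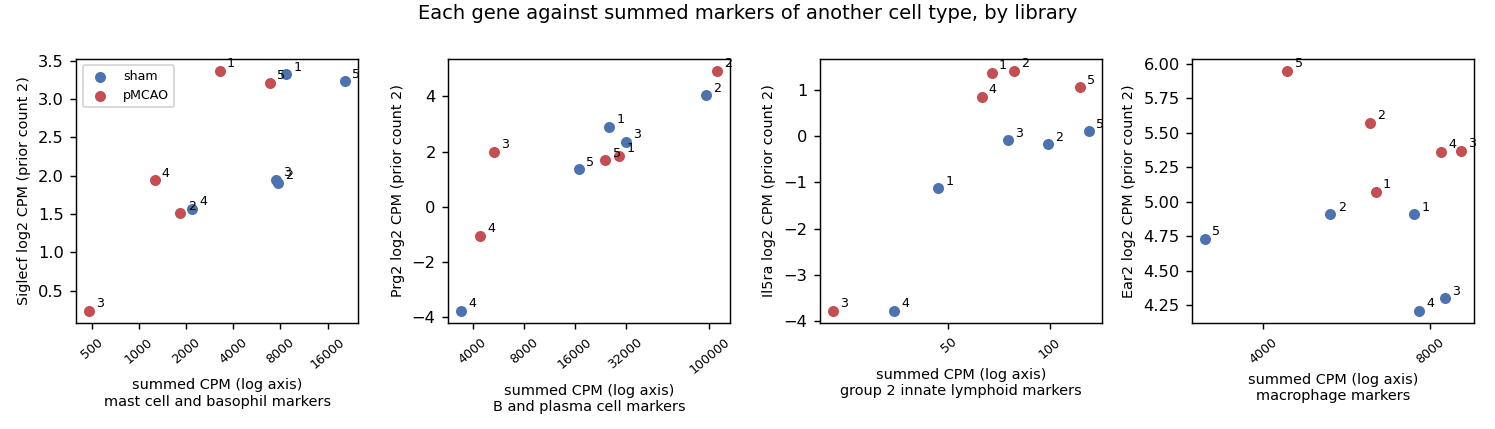
Log2 CPM (prior count 2) of each gene against the summed CPM (horizontal log axis) of markers of mast cells and basophils (Siglecf), B and plasma cells (Prg2), group 2 innate lymphoid cells (Il5ra) or macrophages (Ear2), by library, sham in blue and pMCAO in red, with replicate numbers. Within groups Siglecf, Prg2 and Il5ra vary with the markers shown, with r of 0.861, 0.885 and 0.882, while Ear2 is at −0.531 with the macrophage markers.

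The genes most like Ear2 over the libraries were ranked by Pearson's r of log2 CPM among the 16948 other genes tested. The highest were the noncoding gene Gm26541 (r = 0.965, Spearman's rho = 0.939), Cab39l (0.899 and 0.927), Phlpp2, a protein phosphatase of kinase signalling (0.897 and 0.903), St3gal5, the sialyltransferase that makes ganglioside GM3 (0.881 and 0.891), Lztfl1 (0.869 and 0.770) and Srgap1 (0.867 and 0.952). Because Ear2 was picked for the difference between the groups, genes that differ in the same way can come first in such a ranking. St3gal5, for instance, was at 2.36 to 4.53 CPM in sham and 4.85 to 16.0 CPM after pMCAO. After removal of the group means, other genes led, among them Csk, a kinase that restrains Src kinases (r = 0.950), Hnrnpa1l2-ps (0.950), Dynlt1b (0.946), Spin2c (0.937) and Arid3b (0.934). These are the extremes of a long ranking over 10 libraries and are given as a description. By the same measures Siglecf had an r with Ear2 of 0.025 over the libraries and Prg2 and Il5ra of 0.376 and 0.426.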

How the data were processed

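RNA from 10 libraries (5 sham, 5 pMCAO, 24 h) was measured by paired-end sequencing after removal of ribosomal RNA. The authors deposited raw counts per gene and their own CPM, both for each library. The submitters' processing notes name STAR, featureCounts, limma and the builds GRCm38 and mm10, and versions, strandedness and multi-mapping settings are not given in the sources used here. The table also holds the authors' fold change, mean expression, p-value and FDR columns, which were not used. Every listed gene has at least 10 counts in 2 libraries, so weaker genes had been removed.

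Counts were filtered with filterByExpr (16949 of 17279 genes kept), scaled by TMM and tested with edgeR 4.0.16 in R 4.3.3 by the quasi-likelihood test with Benjamini-Hochberg adjustment over all genes, without covariates. DESeq2 1.42.0 and limma 3.58.1 served as alternatives. Log2 CPM used a prior count of 2. Members and gene lists were chosen with earlier results of these data known, and the alternatives for the cell marker relations after seeing them. Named genes were the members, the 6 genes most like Ear2 by each measure (1 of which is not reported here), genes of the fixed lists with an unadjusted p under 0.05, and the eosinophil, signal, receptor and macrophage lists. Clec4a4, Rnase4, Rnase2b, Rnh1, Cd33, Siglece, Igha, Jchain, Il7r, Rora, Chil3, Csf3r and Retnlg were named after their values were seen. Between any pair of libraries in a group the counts disagreed beyond sampling noise (lowest chi-square over its degrees of freedom 39.2), so each counted as a replicate. Intervals at 0 counts cover counting error only. Coordinates and sequences are from GENCODE M21 (GRCm38).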

Additional observations from a re-analysis of the deposited data

Results flagged for a closer look

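Of 8 groups of 5 libraries examined for the 4 genes, 1 held a library far from the others on the log2 scale. Il5ra was at 0 counts in pMCAO replicate 3, and its gap to the next library was 0.89 of the range of the group, above the limit of 0.71. Chance alone gives about 5% of groups such a gap. That library had 11299863 counts in all, so that 0 counts allows up to 0.303 CPM, below the 1.72 to 2.59 CPM of the other pMCAO libraries. It was also the lowest pMCAO library for Siglecf (1.11 CPM) and for the mast cell and basophil markers (481 CPM). The part of these markers in the value was not tested.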

How the results depend on the processing

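The log2 fold change of Ear2 was positive under all 21 alternatives and lay between 0.71 and 1.02. Because Ear2 was picked for its rise in these same libraries, its constant sign is no support for the rise. The log2 fold change of Il5ra was positive in all 21 (1.19 to 1.81). Siglecf turned from −0.13 to 0.05 with limma-voom and sample quality weights and to 0.19 without the libraries high in Xist, and lay between −0.48 and 0.13 when single libraries were left out, turning positive without sham replicate 1 (0.13) or 5 (0.08) and without pMCAO replicate 2 (0.03) or 3 (0.12). Prg2 turned from 0.42 to −0.26 with sample quality weights and lay between −1.20 (without pMCAO replicate 2) and 1.17 when single libraries were left out. The cause was not tested. No alternative brought Siglecf, Prg2 or Il5ra past an FDR of 0.05 (lowest 0.558), and no gene of the lists passed. Genes past an FDR of 0.05 were 3 with DESeq2 and 0 otherwise. Genes at an unadjusted p under 0.05 were 799, and 1888 with sample quality weights, 462 without both pooled libraries, and 575 to 1268 with each library left out. Non-overlapping genes rose from 167 to 404 without both pooled libraries, 488 without the libraries high in Xist and 253 to 512 with each library left out, since fewer libraries overlap less. Same-numbered libraries correlated in their deviations from −0.00549 to 0.372, over 0.1 in 3 of 5 pairs. They were not taken as pairs under the rule used here, which asked for all 5. Fitting the replicate block gave 0 genes at an FDR of 0.05, and 1303 had an unadjusted p under 0.05, and 2 of 5 sham libraries correlated best with their own number. With the block the standard error fell from 0.59 to 0.41 for Siglecf and from 1.11 to 0.55 for Prg2. For Il5ra it rose from 1.03 to 1.41. The log2 fold changes were then −0.31, 0.28 and 1.62, with FDRs of 0.873, 0.923 and 0.799 in edgeR's test. The width of the intervals given for these members thus depends on leaving the numbers unpaired.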

Other observations

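Other fixed lists gave 0 genes past an FDR of 0.05. Of 8 genes of lung alveolar macrophages, which also carry Siglec-F, 4 were tested, with a median log2 fold change of 0.22. Chil3, a chitinase-like protein, was at 45.9 ± 8.88 CPM in sham and 38.4 ± 24.0 CPM after pMCAO (SD, n = 5 each). Of the 8 genes that respond to interleukin-4 and interleukin-13 in macrophages, 3 had positive and 5 negative fold changes, with a median of −0.03, and their sum was at 591 to 2050 CPM in sham and 875 to 3110 CPM after pMCAO. Of 11 neutrophil genes 2 were tested, with log2 fold changes of 0.03 for Csf3r and −0.01 for Retnlg. The 8 epithelial markers had a median of 0.01, with sums of 440 to 1090 CPM in sham and 135 to 1640 CPM after pMCAO.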
